A study of Mus musculus with 15 samples.

Results

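The 10 genes described here make saturated and monounsaturated fatty acids from acetyl-CoA or control that synthesis, and were taken from the series by name: Fasn, Acaca, Acacb, Acly, Scd1, Scd2, Elovl6, Me1, Srebf1 and Mlxipl. They are 10 of the 46603 Ensembl genes in the count tables, and all 10 were among the 15997 genes that passed the filter on low counts. Mlxipl passed it only through its samples of 1 condition, MEFD5plu. RNA-Seq was done on 15 samples of mouse embryonic fibroblasts (MEFs), 3 in each of 5 conditions, prepared from wild-type BALB/c embryos aged 10.5 days. The condition called MEFD0 was sampled on day 0 before any treatment, in DMEM with 10% FBS as the growth medium. Treated cells (MEFD3plu) had spent 3 days in that medium to which insulin (10 µg/mL), rosiglitazone (10 µM, a ligand that activates PPARG), dexamethasone (1 µM, a glucocorticoid) and IBMX (0.5 mM, an inhibitor of phosphodiesterases) had been added. MEFD5plu cells were treated in the same way, after which growth medium without the 4 agents was used for 2 days. MEFD3min and MEFD5min were the untreated cells of day 3 and day 5. The replicates carried the numbers 1, 3 and 4 in every condition, and neither the labels nor the methods say whether these were separate cultures or pools of embryos. The p-values therefore measure the spread between these samples, which may be technical.

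In de novo lipogenesis, citrate exported from mitochondria is split by ATP citrate lyase (Acly) into cytosolic acetyl-CoA. Acetyl-CoA carboxylase (Acaca, and its paralog Acacb at the outer mitochondrial membrane) turns this into malonyl-CoA, and fatty acid synthase (Fasn) builds palmitate from it with NADPH, part of which is supplied by the cytosolic malic enzyme Me1. Elovl6 then lengthens palmitate to stearate, and the stearoyl-CoA desaturases Scd1 and Scd2 introduce a double bond. Insulin acts on the pathway largely through the transcription factor SREBP-1, the product of Srebf1, and glucose through ChREBP, the product of Mlxipl, and both factors are active in liver and in fat cells, where the pathway supplies fatty acids for storage.

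Total counts lay between 24030558 and 37281126 per sample. Levels below are in CPM, counts relative to the library total after TMM scaling in edgeR. Log2 fold changes with their standard errors (SE) and adjusted p-values come from the quasi-likelihood test of edgeR over all 15997 genes, and a gene was called at an adjusted p under 0.05. The 10 adipocyte markers, such as Fabp4 and Pparg, summed to 22.5 to 36.8 CPM in the untreated samples, 4131 to 5326 CPM in MEFD3plu and 6478 to 7753 CPM in MEFD5plu, with 3 to 6 of them at or under 3 counts in every sample of an untreated condition and 1 in each treated condition. Of 8 hepatocyte markers, 4 to 6 per condition were at or under 3 counts in every sample, and the list summed to at most 3.10 CPM. The 7 fibroblast markers, led by Col3a1 and Vim, summed to 10444 to 33402 CPM across all samples, highest in MEFD3min. RNA came from whole cultures, so more cells of a type and more RNA per cell cannot be told apart, and the part of the adipocyte markers' rise in the results below was not tested.

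The promoter windows of 3 genes are shown because these genes stand for the patterns described below. Treatment raised Fasn and Acly at day 3, while neither was called at day 5, and Mlxipl was counted in treated cells only. Each window holds the 250 bases before a RefSeq transcript start (GRCm38.p6), printed 5′ to 3′ on the gene's strand, with matches in capitals to the letters of 4 motifs searched on both strands: CACGTG (the E-box), CCAAT (the CCAAT box), GGGCGG (the GC box) and TCACNCCAC (sterol regulatory element core). The windows are chr11:120824548-120824797 for Fasn and chr11:100528001-100528250 for Acly, both on the minus strand, and chr5:135089640-135089889 on the plus strand for the first of the windows of Mlxipl.
Fasn: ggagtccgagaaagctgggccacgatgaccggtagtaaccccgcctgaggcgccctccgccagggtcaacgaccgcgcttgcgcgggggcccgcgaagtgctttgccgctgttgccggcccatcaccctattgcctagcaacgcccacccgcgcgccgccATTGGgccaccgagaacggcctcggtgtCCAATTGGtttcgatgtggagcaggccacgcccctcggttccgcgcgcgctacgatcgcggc
Acly: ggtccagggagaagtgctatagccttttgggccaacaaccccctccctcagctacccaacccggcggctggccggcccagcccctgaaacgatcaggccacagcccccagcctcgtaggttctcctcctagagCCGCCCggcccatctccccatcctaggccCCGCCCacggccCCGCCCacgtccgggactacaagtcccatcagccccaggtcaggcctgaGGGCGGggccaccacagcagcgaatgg
Mlxipl: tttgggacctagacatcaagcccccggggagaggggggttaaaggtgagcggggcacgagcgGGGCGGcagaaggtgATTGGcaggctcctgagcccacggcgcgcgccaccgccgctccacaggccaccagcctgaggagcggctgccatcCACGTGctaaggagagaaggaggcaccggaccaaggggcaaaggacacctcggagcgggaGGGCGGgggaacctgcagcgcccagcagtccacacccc
In the Fasn window, CCAAT was found 3 times, at 90 to 86, 62 to 58 and 59 to 55 bases before the start, and the last pair, on opposite strands, overlaps. The Acly window holds 4 GC boxes and no other of the motifs. The Mlxipl window holds 1 E-box at 98 to 93 bases before the start, 1 CCAAT and 2 GC boxes, and its second window, at chr5:135106641-135106890, has 1 sterol regulatory element core. Among all 32851 windows of this length, 6.02% hold the E-box, 33.9% CCAAT, 32.7% the GC box and 1.05% the sterol core. Of the 10 genes, 8 had an entry, with 12 windows in all. No window of Fasn, Acaca, Acacb, Acly, Elovl6, Me1 or Srebf1 has the E-box or the sterol core, which says only that these letters are not there. The only windows of Acaca (chr11:84195188-84195437) and Acacb (chr5:114165268-114165517) lie inside the genes. These genes start at 84129672 and 114146535, and the bases before those starts were not searched.

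The genes fell into groups of different course over the 5 conditions, as the plot of every sample's level shows. Acly, Acaca, Fasn and Scd2 were high in MEFD0 and MEFD3plu and low in the untreated cells of days 3 and 5. They differed in MEFD5plu, where Acly, Fasn and Scd2 (278, 312 and 989 CPM) were not called apart from MEFD5min. Acaca (173 CPM) lay there between its levels in MEFD3plu and MEFD5min. Scd1 and Acacb rose with treatment at day 3 and further by day 5. Me1 was raised at both days, Srebf1 had a single peak in MEFD3plu, and Elovl6 was highest in MEFD0 and lower in treated than in untreated cells. Summed over the 10 genes, the level was 4067 ± 404 CPM in MEFD0 (mean ± SD, n = 3). It was 2466 ± 388 CPM in untreated and 4725 ± 269 CPM in treated cells at day 3, and 2269.8 ± 200.3 and 6666 ± 572 CPM at day 5. Scd1 alone gave 8.74% ± 0.285 of the counts of the 10 genes in MEFD0 and 68.9% ± 2.20 in MEFD5plu, while the share of Scd2 went from 47.2% ± 1.35 to 14.9% ± 1.08 (mean ± SD, n = 3).

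**Figure D1:**
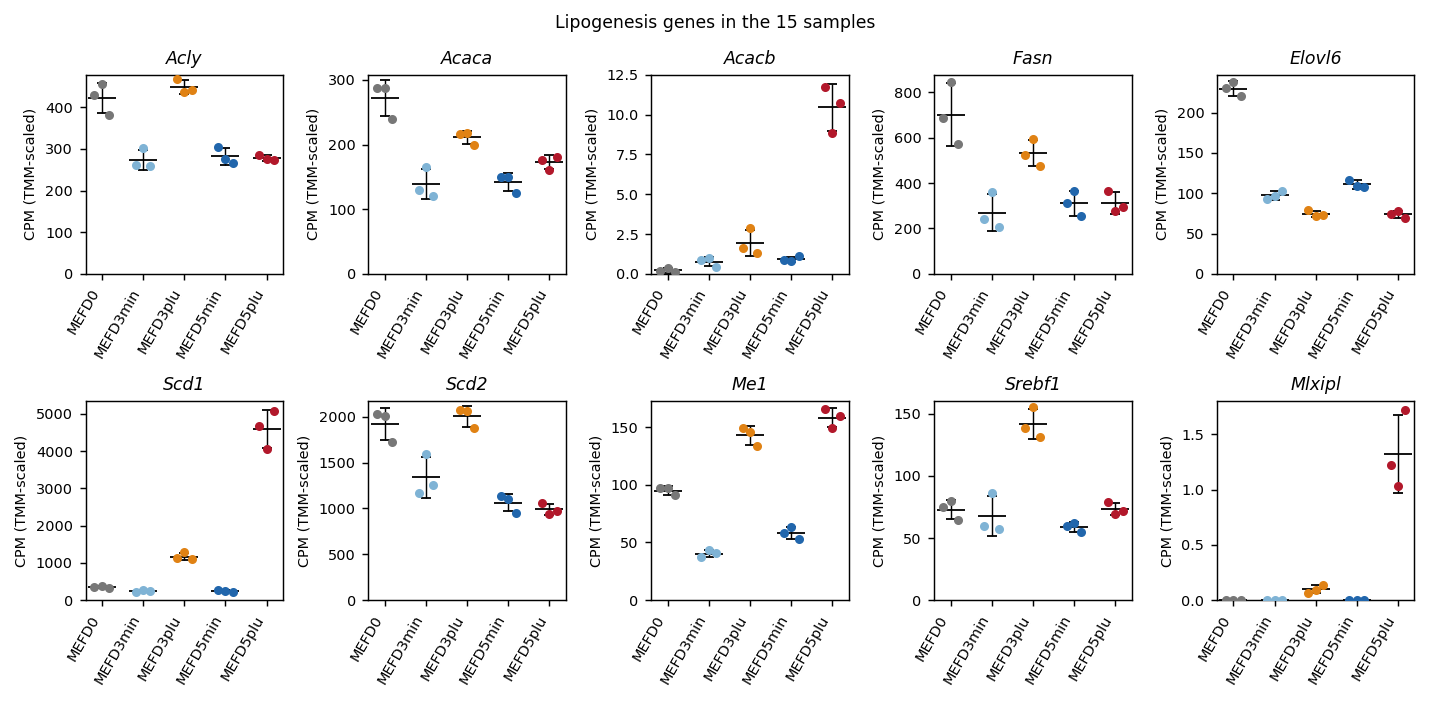
CPM of the 10 genes (TMM-scaled, linear axes from 0) in each of the 15 samples, with the mean (bar) and SD (whiskers) of the 3 samples of a condition. Scd1 and Acacb are highest in MEFD5plu, Srebf1 in MEFD3plu, and Elovl6 and Fasn in MEFD0, although the MEFD0 and MEFD3plu samples of Fasn overlap.

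The question at day 3 was how the genes differ between cells with and without 3 days of the differentiation agents. In MEFD3plu/MEFD3min, 9 of the 10 genes were called higher in treated cells and 1, Elovl6, lower. Among all 15997 genes, 28% were called higher and 28% lower. The fitted log2 fold changes of the 10 genes had a median of 1.02, against a median of 0.00 over all genes tested, and 0.84 when Mlxipl, at 0 counts in untreated cells, is set at the bound that a floor of 3 counts per library allows. Scd1 rose 4.91-fold, Me1 3.53-fold, Acacb 2.49-fold and Fasn 1.98-fold. Srebf1, Acly, Acaca and Scd2 rose by 1.07, 0.71, 0.61 and 0.58 on the log2 scale.

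At day 5, after 2 days without the agents, fewer of the genes were called. No cells stayed in the agents until day 5. Their removal and the later time therefore cannot be told apart here, in the interaction or between the treated groups. In MEFD5plu/MEFD5min, 5 were called higher (Acaca, Acacb, Scd1, Me1 and Mlxipl), 1 lower (Elovl6) and 4 did not pass (Fasn, Acly, Scd2 and Srebf1), beside 26.3% of all genes called higher and 24.2% lower. The median log2 fold change was 0.30 over the 10 genes and 0.01 over all genes. The call of Acaca was weak and is described with that gene. Mlxipl was in the tested set only through MEFD5plu, so its call here is a description. Scaling to total counts without TMM factors moved the median of all genes to -0.15 and the higher share of all called genes from 52.1% to 37.0%, but the direction of every called member held.

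Whether the treatment effect itself differed between the days was tested as the interaction (day 3 effect minus day 5 effect). It was larger at day 3 for 5 of the genes (Fasn, Acly, Scd2, Me1 and Srebf1) and larger at day 5 for Acacb and Scd1, where 22.6% and 25.8% of all genes passed in these directions. Acaca (log2 difference 0.32, adjusted p = 0.104) and Elovl6 (0.21, adjusted p = 0.117) did not pass. With total counts alone, the higher share of all called genes in the interaction was 59.5% in place of 46.7%, its median over all genes was 0.15, and Acaca and Elovl6 passed (0.51 and 0.40). Mlxipl could not be tested, since both untreated groups were at 0 counts. Between the treated groups (MEFD5plu/MEFD3plu), which share samples with the comparisons above, 3 genes were higher at day 5 (Acacb, Scd1 and Mlxipl), 5 lower (Fasn, Acaca, Acly, Scd2 and Srebf1) and Elovl6 and Me1 were not called, beside 33.8% and 29.2% of all genes. The call of Mlxipl there is likewise only a description.

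**Figure D2:**
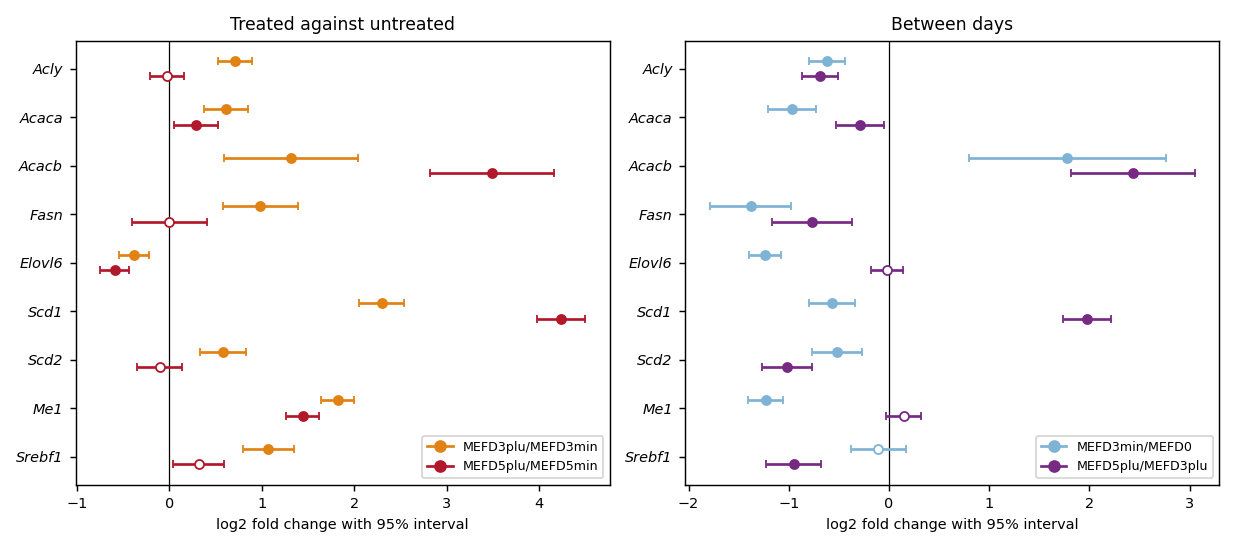
Log2 fold changes with 95% intervals of 9 genes, treated against untreated at day 3 and day 5 (left) and between days (right); filled points had an adjusted p under 0.05, and Mlxipl is left out because its untreated samples hold 0 counts. At day 5 the points of Acly, Fasn and Scd2 lie at -0.02, 0.00 and -0.10, while those of Scd1 and Acacb lie at 4.24 and 3.49.

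Untreated cells changed over the first 3 days as well. In MEFD3min/MEFD0, 7 of the 10 genes fell (Fasn, Acaca, Acly, Scd1, Scd2, Elovl6 and Me1), Acacb rose, Srebf1 was not called and Mlxipl stayed at 0 counts. Of all genes, 28.6% were lower and 31.4% higher. The largest falls were those of Fasn, by 1.38 on the log2 scale (SE 0.193), Elovl6, by 1.24 (SE 0.0758), and Me1, by 1.23 (SE 0.0845). From day 3 to day 5 of untreated culture (MEFD5min/MEFD3min) only Me1 was called higher (log2 fold change 0.52, SE 0.0841, adjusted p = 8.20e-05) and only Scd2 lower (log2 fold change -0.33, SE 0.116, adjusted p = 0.0273), beside 21.3% and 21.5% of all genes. Scaling by total counts changed the higher share of all called genes there from 49.7% to 62.7%, and Scd2 (-0.23) was then not called while Elovl6 (0.29) was. The Scd2 call was also lost without MEFD3min replicate 3 (-0.19, adjusted p = 0.151) or MEFD5min replicate 4 (-0.26, adjusted p = 0.124). Without MEFD3min replicate 3, Fasn was called higher (0.48, adjusted p = 0.0282), and Srebf1 was called lower in MEFD3min than in MEFD0 (-0.32, adjusted p = 0.0116).

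The comparisons of the other pairs serve only to order the levels. Over all 10 pairs of conditions and 10 genes, 75 of 100 differences were called. The 100 include the pairs of untreated conditions for Mlxipl, which had 0 counts on both sides and could not be called. The shares of all genes called in either direction were 46.4% for MEFD5min against MEFD0, 63.5% for MEFD3plu against MEFD0, 65% for MEFD5plu against MEFD0, 62.7% for MEFD3plu against MEFD5min and 56.7% for MEFD5plu against MEFD3min.

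Acly (chr11:100476353-100528000, GRCm38, minus strand) supplies the acetyl-CoA. Its level was 428, 455 and 383 CPM in MEFD0 (replicates 1, 3 and 4), 261, 302 and 260.2 in MEFD3min and 468, 436 and 441 in MEFD3plu. At day 5 it was 304, 277 and 266 CPM in MEFD5min and 286, 275 and 273 in MEFD5plu. The treated and untreated samples were apart at day 3 and overlapped at day 5. Treatment raised Acly 1.63-fold at day 3 (log2 fold change 0.71, SE 0.0866, adjusted p = 2.19e-06). At day 5 the log2 difference was -0.02, with a 95% interval of -0.20 to 0.16, and the interaction was 0.73 (SE 0.122, adjusted p = 1.12e-04). In the order of its levels, MEFD3plu and MEFD0 did not differ beyond their spread (adjusted p = 0.394), nor did MEFD5min, MEFD5plu and MEFD3min from each neighbour (adjusted p = 0.853 and 0.871), and the step between those sets was called (log2 difference 0.58, adjusted p = 3.49e-05).

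Me1 (chr9:86581371-86695953, minus strand) makes cytosolic NADPH from malate. Its samples stood at 37.2, 43.4 and 40.7 CPM in MEFD3min and 149, 146 and 134 in MEFD3plu, then at 58.4, 63.0 and 53.1 CPM in MEFD5min and 166, 149 and 159 in MEFD5plu. In MEFD0 they were at 97.0, 97.2 and 90.9 CPM. Both treated groups lay above all other samples, and the groups did not overlap at either day. The gene rose 3.53-fold at day 3 (log2 fold change 1.82, SE 0.0855, adjusted p = 1.10e-11) and 2.72-fold at day 5 (log2 fold change 1.44, SE 0.0843, adjusted p = 4.74e-10). The day 3 effect was larger by 0.38 (SE 0.117, adjusted p = 0.0138), over alternatives between 0.00192 and 0.0537. Only MEFD5plu and MEFD3plu, at 158 and 143 CPM, were neighbours that did not differ beyond their spread (adjusted p = 0.129). Of the stretches of 50 bases in the exons of Me1, 22.9% also occur in other genes (Gm7049 and Gm7329), so its counts can depend on how shared reads were handled.

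The carboxylases Acaca and Acacb differed in level and in course. Acaca (chr11:84129672-84401651, plus strand) stood at 287, 288 and 240.1 CPM in MEFD0, 129, 166 and 121 in MEFD3min and 217, 218 and 199.9 in MEFD3plu. On day 5 it stood at 150.0, 149.9 and 125 CPM in MEFD5min and 176, 161 and 181 in MEFD5plu. Treated and untreated samples did not overlap at either day. It rose 1.53-fold with treatment at day 3 (log2 fold change 0.61, SE 0.113, adjusted p = 1.96e-04). The day 5 difference was 0.28 (SE 0.113, adjusted p = 0.0451), and this call was lost without any 1 of the samples other than MEFD5plu replicate 3 (0.16 to 0.33, adjusted p = 0.0516 to 0.296) and in DESeq2 (0.24, adjusted p = 0.0968), with a range of adjusted p from 0.0144 to 0.442 over the alternatives. Its fall from MEFD3plu to MEFD5plu (log2 fold change -0.29, SE 0.113, adjusted p = 0.0315) was lost without replicate 1 or 3 of either group, at -0.24 to -0.31. Of its stretches of 50 bases, 30.4% also occur in other genes, Gm5182 among them. For its longest transcript alone the share is 52.6%.

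Acacb (chr5:114146535-114250761, plus strand), whose product makes the malonyl-CoA that limits fatty acid entry into mitochondria, was far less abundant. Its counts were 5, 14 and 4 in MEFD0, 27, 36 and 13 in MEFD3min, and 47, 92 and 47 in MEFD3plu. On day 5 they were 30, 21 and 41 in MEFD5min and 395, 275 and 356 in MEFD5plu. The MEFD5plu samples lay apart from all others. The gene rose 2.49-fold at day 3 (log2 fold change 1.32, SE 0.344, adjusted p = 0.00361) and 11.2-fold at day 5 (log2 fold change 3.49, SE 0.319, adjusted p = 1.37e-07). The effect was larger at day 5 (interaction -2.17, SE 0.474, adjusted p = 0.00116). In untreated cells Acacb rose from MEFD0 to MEFD3min (log2 fold change 1.78, SE 0.464, adjusted p = 0.00316), by 2.45 on the log2 scale without MEFD0 replicate 3 and by 1.45 to 2.04 without any other 1 of the 6 samples, while Acaca fell (log2 fold change -0.97, SE 0.114, adjusted p = 1.15e-06).

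The ratio of Acaca to Acacb counts within a library does not depend on its scaling. It was 1520.3, 749.6 and 1912 in MEFD0, 150.1, 162 and 267 in MEFD3min and 134, 75.2 and 149 in MEFD3plu. At day 5 the ratio was 176, 179 and 112 in MEFD5min and 14.9, 18.1 and 16.9 in MEFD5plu (0.5 counts added to each gene). The log2 ratio was lower in treated cells by 3.20 at day 5 (0.109 of the untreated ratio), with no overlap between the groups. At day 3 the difference was -0.70, and -0.89 to -0.40 over the alternatives. The day 3 groups nearly touched, at 149 in MEFD3plu replicate 4 and 150.1 in MEFD3min replicate 1. The day 3 and day 5 differences, with 0.5 counts added, each have an exact two-sided permutation p of 0.1, the smallest that this test of 3 samples against 3 can give. It was 0.125 after adjustment over the 10 ratio comparisons. Per kilobase of exon, Acaca stood at 15.9 CPM and Acacb at 0.0226 CPM in MEFD0, and at 10.1 and 1.09 CPM in MEFD5plu. Per kilobase of the longest transcript, Acaca stood at 28.6 and 18.1 CPM in MEFD0 and MEFD5plu, and Acacb at 0.0248 and 1.19 CPM.

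**Figure D3:**
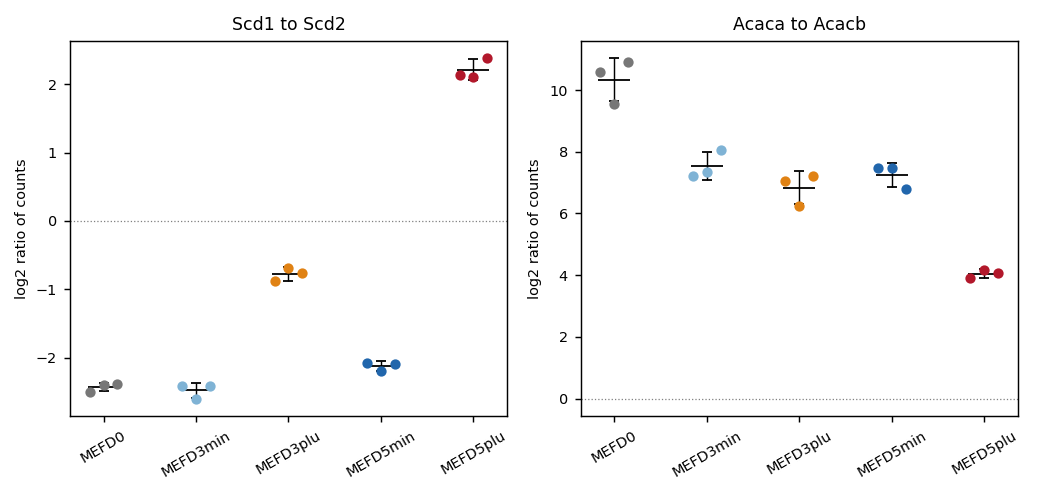
Log2 ratio of counts of Scd1 to Scd2 (left) and of Acaca to Acacb (right) within each of the 15 libraries, with mean and SD of the 3 samples per condition; the dotted line marks equal counts. Scd1 exceeds Scd2 only in the 3 MEFD5plu samples, at ratios of 4.32 to 5.24, and Acaca exceeds Acacb in all 15.

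Fasn (chr11:120805846-120824547, minus strand) is the synthase itself. The samples were at 688, 845 and 570.4 CPM in MEFD0 and 240.0, 361 and 206 in MEFD3min, and at 525, 592 and 477 CPM in MEFD3plu. Day 5 samples were at 313, 366 and 256 CPM in MEFD5min and 365, 277 and 294 in MEFD5plu. Replicate 3 was the highest sample in every condition except MEFD5plu, and MEFD3min replicate 3 lay above the other two of its condition. Treated samples lay above untreated ones at day 3 and overlapped them at day 5. Fasn rose 1.98-fold at day 3 (log2 fold change 0.98, SE 0.192, adjusted p = 3.11e-04), and 1.25 on the log2 scale without MEFD3min replicate 3. At day 5 the means were 312 and 311 CPM, a log2 difference of 0.00 with a 95% interval of -0.40 to 0.40. The interaction was 0.98 (SE 0.269, adjusted p = 0.00622). MEFD0, at 701 ± 138 CPM (SD, n = 3), was the highest condition and was not called apart from MEFD3plu (adjusted p = 0.0759), whereas MEFD3plu and MEFD5plu differed (log2 fold change -0.77, SE 0.191, adjusted p = 0.00207). The windows shown above for Fasn and Acly share none of the searched motifs.

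Elovl6 (chr3:129532355-129638495, plus strand) was the only one of the 10 genes called lower in treated cells. It stood at 230.4, 238 and 220.5 CPM in MEFD0, 92.7, 96.1 and 103 in MEFD3min and 79.1, 72.3 and 72.8 in MEFD3plu. The day 5 samples were at 117, 109 and 107 CPM in MEFD5min and 74.2, 78.0 and 68.8 in MEFD5plu. Neither day's groups overlapped, and the MEFD0 samples were above all others. It fell by 0.38 on the log2 scale at day 3 (SE 0.0754, adjusted p = 3.50e-04) and by 0.59 at day 5 (SE 0.0755, adjusted p = 6.28e-06). The treated groups, at 74.7 and 73.6 CPM, were not called apart (log2 difference -0.02, 95% interval -0.18 to 0.14). Its difference between MEFD5min and MEFD3min missed the threshold (log2 fold change 0.19, adjusted p = 0.0529), with a range of 0.00448 to 0.375 over the alternatives.

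Scd1 (chr19:44394455-44407879, minus strand), the main desaturase of fat tissue, made the largest change among the abundant genes. It was counted at 357, 379.6 and 328 CPM in MEFD0, 218, 262 and 235 in MEFD3min and 1123, 1283 and 1104 in MEFD3plu. By day 5 the samples stood at 267, 239 and 224 CPM in MEFD5min and 4671, 4058 and 5067 in MEFD5plu. Every treated sample lay above every untreated one, and MEFD5plu above MEFD3plu. The rise was 4.91-fold at day 3 (log2 fold change 2.30, SE 0.113, adjusted p = 2.03e-11) and 18.9-fold at day 5 (log2 fold change 4.24, SE 0.123, adjusted p = 4.62e-14). The effect was larger at day 5 (interaction -1.94, SE 0.154, adjusted p = 3.16e-08), and between the treated groups it rose 3.93-fold (log2 fold change 1.97, SE 0.112, adjusted p = 2.15e-10). Only MEFD5min and MEFD3min were neighbours not called apart (adjusted p = 0.846).

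Scd2 (chr19:44293674-44306864, plus strand), a paralog on the same chromosome that is expressed in many tissues, did not follow Scd1. Its samples were at 2029.5, 2011 and 1719 CPM in MEFD0, 1168, 1594 and 1255 in MEFD3min and 2069.7, 2063 and 1875 in MEFD3plu. For day 5 the values were 1131, 1103 and 953 CPM in MEFD5min and 1059, 940.1 and 967 in MEFD5plu. The day 3 groups were apart and the day 5 groups overlapped in the range of 952.6 to 1059 CPM. Scd2 rose at day 3 (log2 fold change 0.58, SE 0.116, adjusted p = 3.86e-04), and its log2 difference at day 5 was -0.10 with a 95% interval of -0.35 to 0.14. From MEFD3plu to MEFD5plu it fell by 1.02 on the log2 scale (SE 0.117, adjusted p = 1.14e-06).

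The ratio of Scd1 to Scd2 counts was 0.176, 0.189 and 0.191 in MEFD0, 0.187, 0.165 and 0.187 in MEFD3min and 0.542, 0.622 and 0.589 in MEFD3plu. On day 5 it was 0.236, 0.217 and 0.235 in MEFD5min and 4.41, 4.32 and 5.24 in MEFD5plu. Scd2 was thus the more counted gene in 12 samples and Scd1 in the 3 of MEFD5plu. The treated groups lay above the untreated ones with no overlap, by 1.70 on the log2 scale at day 3 and 4.34 at day 5 (exact two-sided permutation p of 0.1 each, adjusted 0.125). Per kilobase of exon the order was the same, with 239 CPM for Scd1 and 367 for Scd2 in MEFD3plu, and 940.0 and 181 CPM in MEFD5plu. Of the stretches of 50 bases, 4.56% of those in Scd1 and 3.97% of those in Scd2 occur in another gene of this family or a related sequence. Scd3, named here because it shares such sequence and after its values were seen, had 3 to 11 counts in the untreated samples, 75 to 99 in MEFD3plu and 129 to 202 in MEFD5plu, and reads that match both Scd1 and Scd3 cannot be told apart.

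Srebf1 (chr11:60199089-60222581, minus strand) had its peak in MEFD3plu. Its samples were at 74.8, 79.6 and 64.2 CPM in MEFD0, 59.9, 86.1 and 56.9 in MEFD3min and 139, 155 and 132 in MEFD3plu. On day 5 they were at 59.9, 62.0 and 54.8 CPM in MEFD5min and 78.9, 69.5 and 71.6 in MEFD5plu. The MEFD3plu samples lay above all 12 others, and MEFD3min replicate 3 stood above its 2 companions. Srebf1 rose at day 3 (log2 fold change 1.07, SE 0.131, adjusted p = 2.20e-06) and fell by 0.95 on the log2 scale between the treated groups (SE 0.130, adjusted p = 8.09e-06). At day 5 the groups did not overlap, but the difference of 0.32 missed the threshold (SE 0.130, adjusted p = 0.0519), and the alternatives fell on both sides of it, from 0.00446 to 0.385. The other 4 conditions, from 58.9 to 73.4 CPM, were not called apart between neighbours. Counts per gene do not separate the SREBP-1a and SREBP-1c transcripts of Srebf1, nor do they show cleavage of the protein.

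Mlxipl (chr5:135089890-135138382, plus strand) was at 0 counts in all 9 untreated samples, which allows up to 0.0795 to 0.117 CPM per sample at a floor of 3 counts (counting error only). It had 2, 3 and 5 counts in MEFD3plu and 41, 32 and 57 in MEFD5plu, or 1.22, 1.03 and 1.72 CPM. MEFD5plu was at least 11.3-fold higher than MEFD5min, against the highest floor of a single library. The day 3 call (adjusted p = 0.00663) rests on 10 counts in 3 samples and sets no bound above 1. MEFD5plu exceeded MEFD3plu 12.5-fold (log2 fold change 3.64, SE 0.495). Mlxipl passed the filter on low counts only through MEFD5plu, the condition where it is high. Its calls with MEFD5plu therefore describe these counts and are no independent test. An antisense gene, Gm43500, covers 4.24% of its exon bases, and the strand setting of the counting is not given in the sources used here. Per kilobase of exon, Mlxipl reached 0.239 CPM in MEFD5plu, where Srebf1 stood at 13.0 CPM.

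Ordered by CPM per kilobase of exon, Scd2 led in MEFD0, MEFD3min, MEFD3plu and MEFD5min, at 194 to 367 CPM per kilobase, and Scd1 led in MEFD5plu. Acly, Scd1 and Fasn took ranks 2 to 4 in MEFD0, MEFD3min, MEFD3plu and MEFD5min, while in MEFD5plu Me1 (41.1) stood above Fasn (28.5). Acacb and Mlxipl were at ranks 9 and 10 in all 5 conditions. By longest transcript these ranks held, while Acaca moved from rank 8 to 7 in MEFD3min and MEFD5min and from 8 to 6 in MEFD5plu.

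Of 11 tested genes that control SREBP and ChREBP, 4 were higher and 2 lower at day 3, beside 28% and 28% of all genes, and 4 higher and 2 lower at day 5, beside 26.3% and 24.2%, so these counts are near the background. Their median log2 fold change was 0.05 and -0.02, against 0.00 and 0.01 over all genes. Nr1h3, which encodes the oxysterol receptor LXR alpha that induces Srebf1, rose most. Its counts were 26 to 36 in MEFD3min, 636 to 761 in MEFD3plu, 3 to 14 in MEFD5min and 1099 to 1135 in MEFD5plu (log2 fold change 4.59 at day 3 and 7.31 at day 5, adjusted p = 3.25e-12 and 2.20e-13). Without MEFD5min replicate 4 the day 5 value was 8.14. Nr1h3 was higher in MEFD5plu than in MEFD3plu, whereas Srebf1 was lower there. Its relative Nr1h2 was not called at either day (0.05 and -0.02).

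Insig1 and Insig2, whose products hold SREBP in the endoplasmic reticulum, rose at both days, Insig1 by 1.00 and 1.60 and Insig2 by 0.58 and 1.09 on the log2 scale, and both effects were larger at day 5 (interaction -0.60 and -0.51, adjusted p = 2.76e-04 and 0.00320). Mlx, the dimer partner of ChREBP, rose by 0.79 and 0.70. Srebf2, the factor for cholesterol synthesis, fell by 0.68 at day 5 (adjusted p = 5.70e-04). At day 3 it was at 211, 289 and 192 CPM in MEFD3min and 182, 194 and 163 in MEFD3plu, and these samples overlapped. Its day 3 difference (-0.36, adjusted p = 0.0324) was not called without MEFD3min replicate 3 (-0.17, adjusted p = 0.233), MEFD3plu replicate 1 (-0.37, adjusted p = 0.0660) or MEFD3plu replicate 4 (-0.29, adjusted p = 0.119). The escort protein gene Scap was called lower at day 5 only (-0.49, adjusted p = 0.0202), at -0.34 on day 3, and the difference between the days did not pass (adjusted p = 0.610). The Scap call was lost without replicate 1 or 3 of MEFD5min or replicate 3 or 4 of MEFD5plu (-0.39 to -0.46, adjusted p = 0.0596 to 0.101). Mbtps2, a protease that releases SREBP, fell at day 3 (-0.32, adjusted p = 0.00239), and Mbtps1, Usf1 and Usf2 were not called at either day.

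Of 16 genes for acetyl-CoA and NADPH supply, 13 rose and 1 fell at day 3, and 11 rose and 1 fell at day 5. Of all genes, 28% rose and 28% fell at day 3, and 26.3% and 24.2% at day 5. The median log2 fold changes were 1.12 and 0.88, against 0.00 and 0.01 over all genes. Pcx, pyruvate carboxylase, which feeds the citrate that Acly splits, stood at 13.0, 19.3 and 16.2 CPM in MEFD3min and 1174, 1232 and 1151 CPM in MEFD3plu. It rose at both days (log2 fold change 6.19, SE 0.147, adjusted p = 3.59e-15, then log2 fold change 4.73, SE 0.138, adjusted p = 4.63e-14). The mitochondrial malic enzymes did not follow Me1: Me3, at 8, 9 and 15 counts in MEFD3min and 1, 3 and 4 in MEFD3plu, fell at day 3 (-1.97, adjusted p = 0.00881; -1.57, adjusted p = 0.0521 without MEFD3min replicate 4; 0.51 and not called at day 5), and Me2 fell at day 5 (-0.87, adjusted p = 9.33e-06; 0.18 and not called at day 3).

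Of 18 tested elongases, other desaturases and accessory genes, 9 rose and 3 fell at day 3, and 10 rose and 2 fell at day 5 (median log2 fold change 0.39 and 0.42). The shares of all genes were 28% and 28% at day 3 and 26.3% and 24.2% at day 5. Thrsp, whose product Spot 14 accompanies lipogenesis in fat and liver, had 1, 2 and 2 counts in MEFD3min and 1365, 1968 and 2433 in MEFD3plu. At day 5 it had 0, 0 and 2 counts in MEFD5min and 6320, 6890 and 6928 in MEFD5plu, or 188 to 222 CPM. Thrsp, Scd3 and 1 gene of this list at 0 counts in untreated cells passed the filter on low counts only through treated samples. They are among those that rose at both days, and their calls are descriptions and no independent test. Elovl7, an elongase of saturated chains, fell at day 3 (-2.03, adjusted p = 8.09e-08) and was not called at day 5 (-0.45), and Fads1, a desaturase of polyunsaturated fatty acids, fell at both days (-0.70 and -0.47, adjusted p = 4.24e-05 and 0.00220).

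AMP-activated protein kinase, which phosphorylates and inhibits acetyl-CoA carboxylase, had 6 subunit genes tested. At day 3, 3 of them rose and 3 were not called, and at day 5, 3 fell and 3 were not called (medians 0.33 and -0.15), beside 28% of all genes higher at day 3 and 24.2% lower at day 5. Prkab2 rose by 1.40 at day 3 and fell by 0.45 at day 5 (interaction 1.85, adjusted p = 1.29e-07), and Prkaa2 rose by 1.21 at day 3 and was not called at day 5 (0.13). Prkaa1 was not called (-0.04 and 0.13).

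Of 16 cholesterol synthesis genes, the classic targets of SREBP2, 8 rose and 3 fell at day 3, beside 28% and 28% of all genes. At day 5, 5 rose and 3 fell, which is near the 26.3% and 24.2% of all genes (median 0.27 at day 3 and 0.21 at day 5). Lss rose by 1.40 and Fdft1 fell by 1.36 at day 3, while Cyp51 rose by 1.03 at day 5. In untreated cells from day 0 to day 3, 15 of these 16 genes fell and 1, Fdft1, was not called, with a median of -1.01 against 0.04 over all genes, of which 28.6% fell. The separate mitochondrial pathway of fatty acid synthesis had 5 genes tested, and all 5 rose at both days, beside 28% and 26.3% of all genes, Mecr by 1.47 and 0.76, Cbr4 by 0.43 and 1.24 and Mcat by 0.76 and 0.23. The day 3 call of Cbr4 was lost without MEFD3min replicate 3 (0.31, adjusted p = 0.0764) or MEFD3plu replicate 4 (0.30, adjusted p = 0.104), and the day 5 call of Mcat without MEFD5min replicate 4 (0.18, adjusted p = 0.112).

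**Figure D4:**
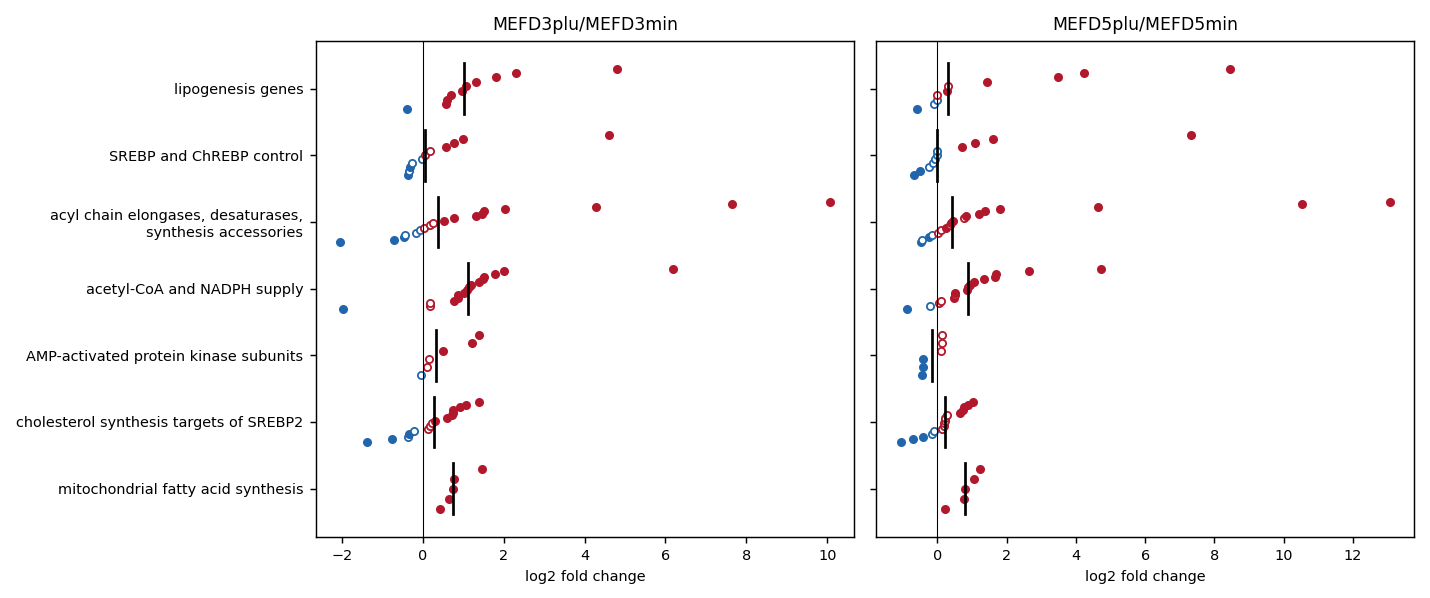
Log2 fold change of each tested gene in 7 lists, treated against untreated at day 3 (left) and day 5 (right); red is higher and blue lower in treated cells, filled points had an adjusted p under 0.05, and black lines mark the list medians. Points of genes at 0 counts in untreated cells, Mlxipl among them, are fitted values whose size is not measured. The median of the lipogenesis genes is 1.02 at day 3 (0.84 with Mlxipl at its bound) and 0.30 at day 5. That of the acetyl-CoA and NADPH supply genes is 1.12 and 0.88.

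For each gene, those with the most similar course were found by the root mean square difference between centred log2 CPM over the 15 samples, among the genes whose mean log2 CPM reached 3 (9585, or 9586 for Acacb and Mlxipl, which are themselves below it). These distances are descriptions, and a gene with a small spread has near matches more easily. Scd2 was closest to Abhd2, at a distance of 0.0555 beside its own SD of 0.438, and to Ankrd13a (0.0939). Fasn was closest to Aacs (0.170), acetoacetyl-CoA synthetase, which makes acetoacetyl-CoA for lipid synthesis, and to the amino acid transporter gene Slc7a5 (0.192), against an SD of 0.584. Aacs, at 106 CPM in MEFD0, 48.2 and 88.2 CPM in untreated and treated cells of day 3 and 55.5 and 57.8 CPM in those of day 5, was also second for Acaca (0.136), after Akap12 (0.109). Acly was nearest to Psme4 (0.0856) and Taf2 (0.0866), and Srebf1 to Pdpr (0.107) and Clec16a (0.116).

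Me1 was nearest to Taldo1 (0.246), transaldolase of the pentose phosphate pathway, and to Ereg (0.263). Scd1 was nearest to Echdc1 (0.423), whose product removes a wrongly carboxylated acyl-CoA that acetyl-CoA carboxylase can form, and to Apmap (0.592), against an SD of 1.65. Echdc1 went from 9.99 ± 1.97 CPM in MEFD3min to 73.7 ± 4.46 in MEFD3plu, and from 9.64 ± 0.199 in MEFD5min to 132 ± 15.7 in MEFD5plu (SD, n = 3). Elovl6 was nearest to Cmtm4 (0.152) and Eml1 (0.165). Acacb was nearest to Ifi207 (0.777) and Ccl7 (0.799), against an SD of 1.80. Mlxipl was nearest to Scd1 (0.450) and Clca3a1 (0.599), against an SD of 1.75. Both members have low counts.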

How the data were processed

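RNA was sequenced from 15 samples (100-base paired reads, RIN above 8 per the study's methods). The values used are the raw counts of reads per Ensembl gene, which the authors deposited for each sample without normalization. Their processing notes name TopHat2 2.1.0, HTSeq and DESeq2 with GRCm38 (mm10). The labels name an unstranded and the methods a stranded library kit. The strand setting and the handling of reads with several matches are not given in the sources used here. Overlaps or shared sequence are given above for Me1, Acaca, Scd1, Scd2 and Mlxipl. Antisense genes also cover 19.3% of the exon bases of Mlx, 18.3% of Fdft1 and 13.2% of Scap. Of the stretches of 50 bases, 28.9% in Mbtps2, 17.2% in Usf1, 9.38% in Fdft1 and 3.98% in Elovl6 occur in other genes. Not all named genes are listed, and the effect on their counts was not tested.

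Of 46603 identifiers, 46091 were named in GENCODE M21 (GRCm38). The filterByExpr function of edgeR 4.0.16 (R 4.3.3) left 15997 genes, and 1 quasi-likelihood model was fitted to all 15 samples, with TMM scaling and Benjamini-Hochberg adjustment within each comparison. Total counts were 24030558 to 37281126 per sample and the floor was set at 3 counts per library, which covers counting error only. Ratios of paralogs were compared by exact permutation. Promoter windows come from RefSeq. Replicates differed by more than sampling noise (chi-square per degree of freedom 5.74 to 114 over 15 pairs).

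The members, the gene lists and the tests were chosen with earlier results of these data known. All members and all genes of the SREBP and ChREBP list are named, with the most raised and most lowered gene of each other list at each day and the 2 genes nearest to each member. A gene that this rule names is not reported here. Scd3 was added after its values were seen. The replicate numbers 1, 3 and 4 paired the samples in MEFD3plu/MEFD3min, where samples sharing a number deviated from their group means together, with correlations of 0.143, 0.228 and 0.360, a pairing read from the data since no source says what the numbers share. In the other comparisons at least 1 correlation was at or under 0.1.

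Alternatives were DESeq2 1.42.0, DESeq2 size factors in edgeR, total counts alone, no filter, at least 10 counts in every sample, a threshold of 0.01, an added requirement of a 2-fold change, a fit to the compared samples alone, the replicate number as a block, and leaving out single samples. For the ratios, 5 counts in place of 0.5 were added, and lengths were also taken from the longest transcript. On simulated counts for MEFD3plu/MEFD3min (15547 genes), the steps recovered 99 of 103 genes changed by 1 and 96 of 97 changed by 2 on the log2 scale, with 8 false calls. For the interaction they recovered 93 of 103 and 96 of 97, with 10 false calls. Far fewer genes were changed there than were called in the data, and the simulated replicates were independent. Scaling under broad change and related replicates were thus not tested.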

Additional observations from a re-analysis of the deposited data

Results flagged for a closer look

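For 7 of the 10 genes the treatment effect differed between day 3 and day 5 in the interaction test of edgeR over all 15997 genes, given as day 3 minus day 5 on the log2 scale. It was larger at day 3 for Fasn (0.98), Acly (0.73), Scd2 (0.68), Me1 (0.38) and Srebf1 (0.75), and larger at day 5 for Acacb (-2.17) and Scd1 (-1.94). Among all genes, 22.6% and 25.8% passed in these directions. The difference of Me1 missed the threshold with no filter on low counts (0.36, adjusted p = 0.0537). Both effects are measured against untreated cells of their own day, and of these genes only Me1 and Scd2 were called between MEFD3min and MEFD5min, whereas Fasn, Acly, Acacb, Scd1, Scd2 and Srebf1 were called between MEFD3plu and MEFD5plu.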

How the results depend on the processing

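Of the alternative values, 1003 were scored as the same, 24 counts of called genes or ranks moved, and 21 differences changed direction. A further 14 differences newly passed the threshold and 17 no longer did. A small change in a count of called genes was also scored as the same. Every called treated-to-untreated difference of a member kept its direction under every alternative run. Requiring a 2-fold change left 5 higher and 0 lower at day 3, 0 lower at day 5, 0 larger at day 3 in the interaction, 1 lower in MEFD5plu/MEFD3plu, 3 lower in MEFD3min/MEFD0 and 0 higher and 0 lower in MEFD5min/MEFD3min. With at least 10 counts in every sample, which removes Acacb and Mlxipl, 1 gene was larger at day 5 in the interaction, 1 higher in MEFD5plu/MEFD3plu, 0 higher in MEFD3min/MEFD0 and 2 higher in MEFD5min/MEFD3min. In that last comparison 2 were also higher with total counts alone and in DESeq2, and 0 were lower at a threshold of 0.01, with total counts alone and with the compared samples alone. The cause was not tested.

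Reversals concerned differences that were not called. Fasn at day 5 was -0.0434 with DESeq2 size factors, -0.163 with total counts alone and -0.0433 in DESeq2. Without a filter, MEFD5min/MEFD3min gave -0.0092 for Acaca and -0.0095 for Scd1. Leaving out 1 sample at a time, MEFD5min/MEFD3min ranged from 1 to 2 genes higher and 0 to 1 lower, with Acaca from -0.056 to 0.18, Acacb from -0.0020 to 0.52, Acly from -0.015 to 0.12, Scd1 from -0.040 to 0.11 and Srebf1 from -0.31 to 0.0105. Further ranges were -0.32 to 0.0026 for Srebf1 in MEFD3min/MEFD0, -0.062 to 0.026 for Elovl6 in MEFD5plu/MEFD3plu, -0.16 to 0.13 for Fasn and -0.11 to 0.034 for Acly at day 5, and -0.083 to 0.014 for the log2 ratio of Scd1 to Scd2 in MEFD3min/MEFD0.

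With the replicate block, day 3 stayed at 9 genes higher and 1 lower and no member's call changed there. At day 5, 6 were higher in place of 5, since Srebf1 passed (0.32, adjusted p = 0.0117 in edgeR), and 78 of 100 pair differences were called. Of the 15 samples, 11 correlated best with samples of their own number. Counts limit Acacb and Mlxipl most.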
